A study of Mus musculus with 18 samples.

Results

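Prostate transcriptomes of A537T-TRAMP mice were compared between 30 weeks and 10 weeks of age. The comparison held 6 of the 18 libraries of the series, chosen by their labels alone: all 3 A537T-TRAMP libraries at 10 weeks (libraries 4, 5 and 6 by their column headers) and all 3 at 30 weeks (libraries 13, 14 and 15). Every mouse of the series was a male of the background labelled C56NL/6N that carried 1 copy of TRAMP, the SV40 large-T and small-t antigens under the probasin promoter, which is active in prostatic epithelium, and total RNA came from the ventral and lateral lobes together. A537T-TRAMP mice carried the A537T alanine-to-threonine change of ELAC2 on both alleles in all cells of the body, the mouse counterpart of a human ELAC2 variant. For comparison, WT-TRAMP mice had unchanged Elac2, and KO-TRAMP mice had lost exon 8 of Elac2 in cells in which the Pb-Cre driver, also a probasin promoter, was active, so that their stromal and immune cells kept it. Each of these lines likewise had 3 libraries at 10 weeks and 3 at 30 weeks. The headers tie no library to a named mouse, so p-values measure the spread between libraries of a group.

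ELAC2 is the RNase Z that removes the 3′ trailers of precursor tRNAs, in the nucleus and in mitochondria. In TRAMP prostate the large-T antigen binds and disables p53 and the retinoblastoma protein. The epithelium progresses from hyperplasia through intraepithelial neoplasia to adenocarcinoma as the mice age. Ageing and tumour-bearing prostate can also gain lymphocytes, macrophages and activated stroma, which in a bulk library appear as transcripts of those cells.

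The 18 libraries held between 9380174 and 14830104 recovered reads, and the 6 A537T-TRAMP libraries between 9454816 and 14038038. Replicates within both ages differed beyond sampling noise. Transcripts of 9 seminal vesicle genes, a gland removed at dissection, took 0.0487%, 9.05% and 1.27% of the reads of libraries 4, 5 and 6 and 5.45%, 0.000334% and 2.65% of those of libraries 13, 14 and 15. Library 6 also had the highest level of skeletal muscle and urothelium markers. Markers of luminal prostate epithelium were present in every library: the luminal keratin Krt8 had normalized counts of 4156, 2615 and 3545 at 10 weeks against 3252, 4437 and 3603 at 30 weeks, and probasin (Pbsn) had 1220.1, 1653 and 1392 at 10 weeks against 235, 1231 and 419 at 30 weeks. The SV40 transgene was not analysed here. The 2 ages came from different deposited tables, quantified apart, so that age and table cannot be told apart within the line.

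The Elac2 transcript itself (ENSMUSG00000020549.14, on the plus strand of chromosome 11 from 64979038 to 65002069, protein coding) did not differ detectably between the ages. Its normalized counts, meaning reads divided by a size factor per library set over these 6 libraries together, were 327, 263 and 259 at 10 weeks against 239, 267 and 271 at 30 weeks. Library 4 was the highest and library 13 the lowest, and the groups overlapped (log2 fold change −0.12, SE 0.16; exact two-sided permutation p = 0.6, where 3 against 3 libraries cannot go below 0.1). The A537T change alters the protein sequence, so this level does not check the genotype.

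Of 15817 genes tested at a joint mean of at least 10 normalized counts, 2 passed the adjusted threshold of 0.05 by limma on the log2(normalized count + 1) scale (0.0126%), both higher at 30 weeks, and none was lower. Gm12888 falls outside the naming rule given below, which leaves out clone names, and was named after its values were seen, and Igkc, an immunoglobulin segment, is named only as the B and plasma cell list member with the smallest p. At an unadjusted p under 0.05, 710 genes (4.49%) passed, 506 of them (3.2%) higher at 30 weeks. The 3 libraries of 30 weeks lay above all 3 of 10 weeks for 852 genes (5.39%) and below them for 682 (4.31%). With 3 libraries per age such shares can arise without any age difference, and they serve below as the background for the lists. The number of calls depended on how the spread was estimated. With edgeR on the recovered reads it was 0 (731 genes at an unadjusted p under 0.05), with DESeq2 99 (80 higher and 19 lower), and with library weights in limma 125 (107 higher and 18 lower). It was 0 when library 4, 5, 13, 14 or 15 was left out and 1 without library 6. The count was also 0 with a minimum mean of 50 or with the seminal vesicle level as a covariate, 4 with no minimum mean, and 9 of 15917 (0.0565%) when the spread was shared with the WT-TRAMP libraries, an alternative chosen after seeing the data. Scaled as in the deposited tables, the median of all genes moved from −0.01 to 0.18, and 4 lists with medians just under 0 took the other sign with it (mitochondrial RNA synthesis and processing 0.07, polyamines 0.15, smooth muscle 0.18, luminal epithelium 0.18).

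Gm12888 (ENSMUSG00000073764.2, on the minus strand of chromosome 4 from 121316316 to 121324917, GRCm38, protein coding) had normalized counts of 0.869, 1.17 and 6.06 in libraries 4, 5 and 6 at 10 weeks against 339, 684 and 342 in libraries 13, 14 and 15 at 30 weeks. It was near the detection limit in every 10-week library and well above it in every 30-week library, highest in library 14 (2.700 ± 2.91 at 10 weeks and 455 ± 199 at 30 weeks, SD, n = 3; log2 fold change 7.14, SE 0.58, adjusted p = 0.0436). Of its 31-base words, 8.34% occur in other annotated genes, 4.87% in its neighbour in name Gm12886. The transcript rose in the libraries of the other lines too. Their SE and p come from fits of 12 libraries, in which the spread was shared with the A537T-TRAMP libraries. WT-TRAMP had 0.851, 4.89 and 8.59 at 10 weeks against 147, 564 and 376 at 30 weeks (log2 fold change 6.07, SE 0.71, adjusted p = 0.0102), and KO-TRAMP had 4.603, 6.07 and 0.946 then 182, 292 and 236 (log2 fold change 5.78, SE 0.60, adjusted p = 0.00176).

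Igkc (ENSMUSG00000076609.2, on the plus strand of chromosome 6 from 70726435 to 70726966) encodes the constant region of the kappa light chain of antibodies and marks B and plasma cells. Its normalized counts were 3.48, 5.85 and 4.85 at 10 weeks against 202, 112 and 109 at 30 weeks, so that all 30-week libraries, of which library 13 was the highest, lay far above all 10-week libraries (log2 fold change 4.59, SE 0.38, adjusted p = 0.0436). None of its 31-base words occurs in another annotated gene. WT-TRAMP prostates started from a higher level and also rose, from 19.6, 69.7 and 19.3 to 469.8, 394 and 482 (log2 fold change 3.86, SE 0.44, adjusted p = 0.0102). KO-TRAMP prostates had 19.3, 47.5 and 4.73 at 10 weeks against 46.0, 104 and 71.0 at 30 weeks and did not pass (log2 fold change 1.99, SE 0.65, adjusted p = 0.121). The age change in A537T-TRAMP did not differ from that in either line after adjustment (against KO-TRAMP: log2 difference 2.62, SE 0.92, unadjusted p = 0.0157, adjusted p = 0.680). In bulk RNA, more cells of a type and more RNA per cell cannot be told apart.

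The heavy and joining chains of antibodies were also higher in every 30-week library. In what follows, values before and after "then" are normalized counts of libraries 4, 5 and 6 and of libraries 13, 14 and 15, in that order, and for the other lines those of their 10-week and 30-week libraries. Ighm, the IgM heavy chain, had normalized counts of 52.1, 33.9 and 43.6 at 10 weeks against 499, 257 and 284 at 30 weeks (log2 fold change 2.93, SE 0.31, adjusted p = 0.0968), with no overlap between the ages. Its rise passed the test in both other lines (log2 fold change 3.71, SE 0.32, adjusted p = 0.00196 in WT-TRAMP; log2 fold change 1.97, SE 0.44, adjusted p = 0.0458 in KO-TRAMP), from 37.4, 89.2 and 66.6 to 759.8, 875 and 792 and from 43.3, 137 and 59.6 to 178, 402 and 309.7 normalized counts. Jchain, which joins IgA and IgM into polymers, had 9.56, 3.51 and 6.06 at 10 weeks against 92.5, 22.1 and 77.8 at 30 weeks, and Igha, the IgA heavy chain, had 28.7, 4.68 and 7.27 then 172, 29.9 and 59.3. For both, library 14 was the lowest of the older group but still above every younger library, and neither passed. B cell surface markers were near the detection limit: Ms4a1 (CD20) had 0 reads in all 10-week libraries, which allows up to 3 reads in each by counting error alone, and normalized counts of 4.55, 23.3 and 4.63 at 30 weeks, and Cd79a, part of the B cell receptor, had 0.869, 1.17 and 2.42 then 0.758, 5.54 and 2.78. Cr2, a complement receptor of B cells, broke the pattern with 349 in library 5 at 10 weeks. Of the 12 B and plasma cell genes listed, 11 had a read and Tnfrsf17 had none. The minimum mean was reached by 5, and 1 passed (Igkc) against 0.0126% of all genes. All 11 had a positive log2 fold change (median 2.43, against −0.01 over all genes tested, or 1.81 with the 2 members that had no read at 10 weeks set at the bound that 3 reads per library give). Summed over the list, the normalized counts were 101, 407 and 64.2 at 10 weeks and 1128, 482 and 626 at 30 weeks without overlap, and Cr2 alone made up 349 of the sum in library 5.

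Further genes were chosen by rule as the 12 per direction with the smallest p among those with a joint mean of at least 100 and no overlap between ages, leaving out clone names, pseudogene names and immunoglobulin and T cell receptor segments. None of them passed the adjusted threshold, and all are given as values.

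**Figure D1:**
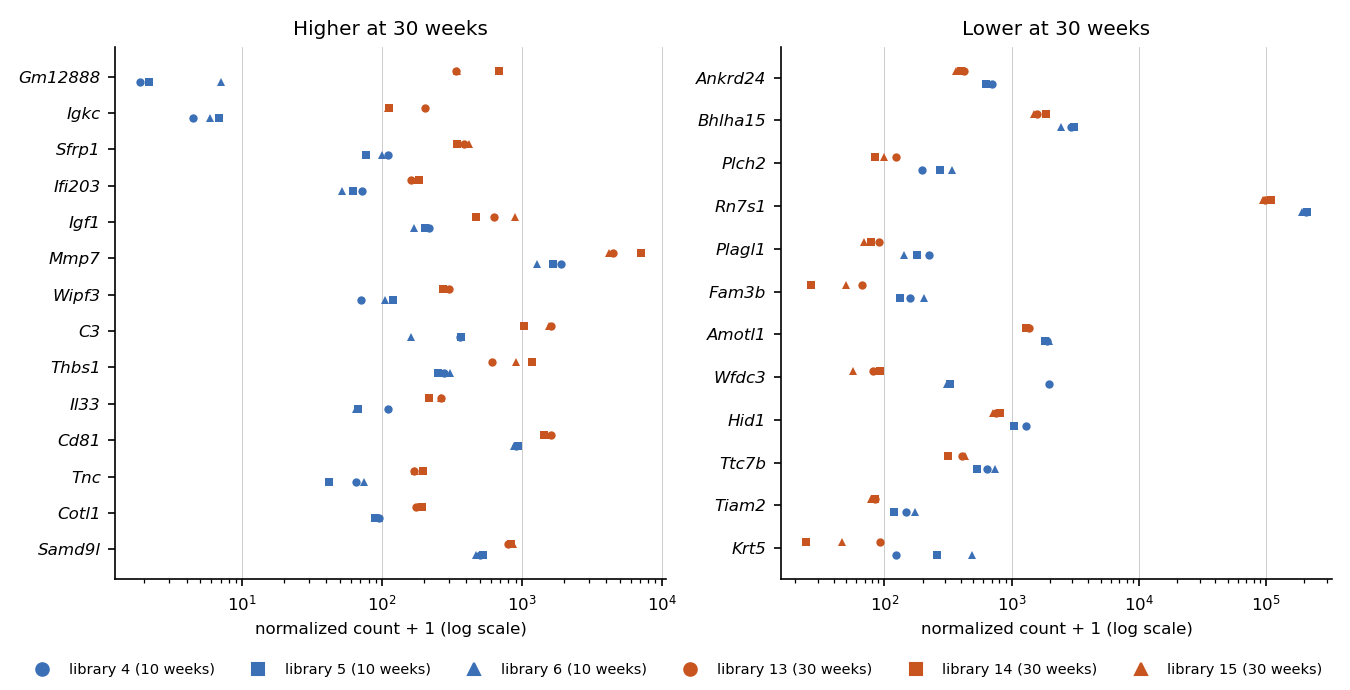
Normalized count plus 1 (log scale) of the 2 genes that passed the test, in the top rows on the left, and of the 24 genes named by rule, in each A537T-TRAMP library. Blue symbols are the 10-week libraries and orange symbols the 30-week libraries, and in every row shown the colours do not overlap, which is how the rule chose the 24 genes.

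Among the 12 genes higher at 30 weeks, Sfrp1, a secreted antagonist of Wnt signalling (ENSMUSG00000031548.7, on the plus strand of chromosome 8 from 23411502 to 23449632), had normalized counts of 109.5, 76.1 and 98.2 at 10 weeks against 383, 343 and 419 at 30 weeks, a narrow spread within each age (log2 fold change 2.01, SE 0.19, adjusted p = 0.0766). Its rise passed the test in WT-TRAMP (log2 fold change 1.12, SE 0.16, adjusted p = 0.0217) and in KO-TRAMP (log2 fold change 2.58, SE 0.38, adjusted p = 0.0100). Igf1, the insulin-like growth factor, had 215, 203 and 168 at 10 weeks against 631, 469.5 and 887 at 30 weeks (log2 fold change 1.72, SE 0.25, adjusted p = 0.293), with library 15 the highest. Il33, an alarmin cytokine of the interleukin-1 family, had 109, 66.7 and 64.2 then 264, 214 and 263 (log2 fold change 1.65, SE 0.25, adjusted p = 0.293). Mmp7, the secreted protease matrilysin, had 1912, 1652 and 1278 then 4485, 7122 and 4188, highest in library 14 (log2 fold change 1.68, SE 0.24, adjusted p = 0.293). The complement component C3 had 359, 365 and 161 then 1608, 1039.8 and 1563 (log2 fold change 2.31, SE 0.35, adjusted p = 0.293) with a count that differs by over 10% between the 2 deposited versions of the WT-TRAMP libraries at either age.

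The matrix glycoprotein Thbs1, thrombospondin 1, of the same 12 genes, had 275, 252 and 307 at 10 weeks against 606, 1183 and 912 at 30 weeks (log2 fold change 1.65, SE 0.25, adjusted p = 0.293), and Tnc, tenascin C, had 64.3, 41.0 and 72.7 then 168, 195 and 170.5 (log2 fold change 1.60, SE 0.26, adjusted p = 0.368). Both had their highest value in library 14. The others act within cells or at their surface. The interferon-inducible genes Ifi203 (71.3, 60.9 and 50.9 then 159.9, 182 and 176, log2 fold change 1.50, SE 0.20, adjusted p = 0.293) and Samd9l (501, 529 and 465 then 787, 837 and 858, log2 fold change 0.73, SE 0.12, adjusted p = 0.389) were higher in all older libraries; 21.6% of the 31-base words of Ifi203 occur in other genes, mostly Ifi203-ps, so that its count is uncertain. Cd81, a tetraspanin of many immune and epithelial cells, had 901, 932 and 874 then 1617, 1429.6 and 1499 (log2 fold change 0.75, SE 0.12, adjusted p = 0.318). Cotl1, an actin-binding protein, had 93.9, 87.8 and 93.3 then 175, 190.5 and 179.7 (log2 fold change 0.98, SE 0.16, adjusted p = 0.374). Wipf3, of a family that binds the actin regulator WASP, had 69.5, 119 and 104 then 299, 270.2 and 278 (log2 fold change 1.56, SE 0.23, adjusted p = 0.293).

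Among the 12 genes lower at 30 weeks, Bhlha15 (Mist1), a transcription factor of secretory cells, had normalized counts of 2953, 3086 and 2462 at 10 weeks against 1569, 1857 and 1506 at 30 weeks (log2 fold change −0.78, SE 0.15, adjusted p = 0.439), and Hid1, a protein of secretory granule formation, had 1292, 1039 and 1046 then 750.4, 811 and 719 (log2 fold change −0.56, SE 0.14, adjusted p = 0.623). Fam3b, a secreted cytokine-like protein, had 158, 132 and 202 then 65.9, 25.5 and 49.1 (log2 fold change −1.87, SE 0.37, adjusted p = 0.439). Wfdc3, a secreted protein with a whey acidic protein domain, had 1965, 330.1 and 308 then 81.1, 91.9 and 55.6, where library 4 stood far above the other 10-week libraries (log2 fold change −2.95, SE 0.69, adjusted p = 0.569). Rn7s1, the 7SL RNA of the signal recognition particle, made up 1.86%, 1.55% and 1.68% of the reads of libraries 4, 5 and 6 and 0.926%, 1.03% and 0.923% of those of libraries 13, 14 and 15 (log2 fold change −1.01, SE 0.20, adjusted p = 0.439). All 270 of its 31-base words occur in Rn7s2, so this level belongs to the pair. The signal-related genes Plch2, a phospholipase C (196, 273 and 338 then 124, 83.1 and 99.1, log2 fold change −1.37, SE 0.26, adjusted p = 0.439), Tiam2, an exchange factor for Rac (148, 118 and 173 then 84.1, 84.2 and 77.8, log2 fold change −0.81, SE 0.21, adjusted p = 0.662), and Ttc7b, a scaffold of a phosphatidylinositol 4-kinase complex (638, 536 and 745 then 407, 317 and 428, log2 fold change −0.73, SE 0.19, adjusted p = 0.652), were lower in every older library. So were Amotl1, an angiomotin-like junction protein (1901, 1827 and 1967 then 1373, 1300 and 1304, log2 fold change −0.52, SE 0.11, adjusted p = 0.484), Plagl1, an imprinted zinc-finger factor (222, 179 and 141 then 89.4, 77.5 and 68.6, log2 fold change −1.17, SE 0.23, adjusted p = 0.439), and Ankrd24 (697, 629.8 and 662 then 421, 399 and 364, log2 fold change −0.75, SE 0.13, adjusted p = 0.391). Ankrd24, Plagl1 and Rn7s1 also differ by over 10% between the 2 deposited versions of the WT-TRAMP libraries. Of all 55469 gene IDs, 3325 did so at either age, among them Lck and Adgre1, which are given below.

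Antigen presentation to helper T cells runs through MHC class II molecules, whose genes are switched on together by the coactivator CIITA, recruited to a conserved promoter module that includes the Y box. The promoter regions of 2 of these genes are shown because 6 of the 7 listed members were higher in all 30-week libraries than in all 10-week libraries. The sequences are the 250 bases before the annotated start in RefSeq (GRCm38.p6), written 5′ to 3′ on the gene's strand, with the Y box letters CTGATTGG in capitals: H2-Aa lies at chr17:34287824-34288073 on the minus strand and H2-Eb1 at chr17:34305617-34305866 on the plus strand.
H2-Aa: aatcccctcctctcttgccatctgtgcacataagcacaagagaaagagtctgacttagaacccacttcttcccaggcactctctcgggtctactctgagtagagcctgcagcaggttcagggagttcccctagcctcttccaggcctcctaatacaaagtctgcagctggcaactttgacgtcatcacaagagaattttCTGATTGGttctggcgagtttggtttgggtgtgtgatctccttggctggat
H2-Eb1: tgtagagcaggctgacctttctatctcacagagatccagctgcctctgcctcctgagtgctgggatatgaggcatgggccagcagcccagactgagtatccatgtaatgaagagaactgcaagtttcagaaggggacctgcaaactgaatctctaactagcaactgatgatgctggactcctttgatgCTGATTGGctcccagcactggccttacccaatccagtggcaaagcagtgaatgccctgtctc
The match begins 51 bases before the start of H2-Aa and 62 bases before that of H2-Eb1. Of the 7 members, 4 had a promoter entry and these 2 held the letters on either strand, as did 3.83% of all 32851 promoters.

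MHC class II transcripts were higher at 30 weeks almost throughout the list. H2-Aa, the alpha chain of I-A, had normalized counts of 342, 253 and 167 at 10 weeks against 777, 551 and 610.5 at 30 weeks (log2 fold change 1.39, SE 0.28, adjusted p = 0.439), H2-Ab1, its beta chain, had 234, 149.8 and 115 then 525, 349.9 and 396 (log2 fold change 1.38, SE 0.29, adjusted p = 0.481), and H2-Eb1, the beta chain of I-E, had 219.9, 169 and 131 then 506, 353 and 466 (log2 fold change 1.36, SE 0.24, adjusted p = 0.391). Library 13 was the highest and library 6 the lowest for all of these chains. Cd74, the invariant chain that guides class II molecules to the endosome, had 554, 567 and 307 then 1319.6, 1004 and 1012 (log2 fold change 1.26, SE 0.26, adjusted p = 0.481), and Ciita, the coactivator, had 32.2, 29.3 and 44.8 then 64.4, 113 and 76.0 (log2 fold change 1.21, SE 0.31, adjusted p = 0.662). H2-DMb1, part of the peptide-loading catalyst, also did not overlap (62.6, 25.8 and 47.3 then 91.0, 67.5 and 65.8), while its partner H2-DMa did (73.0, 42.1 and 98.2 then 70.5, 90.8 and 73.2). The list had 6 of 7 members without overlap and higher, against 5.39% of all genes, and 5 of 7 with an unadjusted p under 0.05, against 4.49%. Its median was 1.26 in A537T-TRAMP, 0.69 in WT-TRAMP and 1.15 in KO-TRAMP, where H2-Ab1 passed (log2 fold change 1.30, SE 0.27, adjusted p = 0.0408).

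Macrophage markers were higher as a list. All 12 had a positive log2 fold change (median 0.90; WT-TRAMP 0.40, KO-TRAMP 1.33), 6 of 12 did not overlap and were higher, against 5.39% of all genes, and 7 of 12 had an unadjusted p under 0.05, against 4.49%. Mrc1, the mannose receptor, had normalized counts of 143, 70.2 and 108 at 10 weeks against 363, 204 and 346 at 30 weeks (log2 fold change 1.51, SE 0.33, adjusted p = 0.535), the complement subunit C1qa had 231, 128 and 116 then 418, 276 and 298 (log2 fold change 1.10, SE 0.30, adjusted p = 0.723), and lysozyme Lyz2 had 383, 183 and 181 then 804, 443 and 542 (log2 fold change 1.31, SE 0.35, adjusted p = 0.706). Adgre1 (F4/80), the classical tissue macrophage marker, overlapped (136, 78.4 and 84.8 then 256.2, 136 and 115), as did the lysosomal marker Cd68 (57.4, 23.4 and 23.02 then 29.6, 47.6 and 45.4). Summed over the list, normalized counts were 1748, 1075 and 1122 at 10 weeks and 3183, 2047 and 2296 at 30 weeks, without overlap. These sums and those of the B and plasma cell list moved with the class II transcripts, which macrophages, dendritic cells and B cells all make, and their part in that result was not tested. Of 6 neutrophil markers, Cxcr2 and Retnlg had no read in any library, S100a8, S100a9 and Ly6g had at most 3 reads in any library, and the receptor Csf3r had 8.69, 14.05 and 4.85 then 16.7, 33.2 and 17.6.

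T and NK cell transcripts were low at both ages, and library 5 had the least. The 15 markers summed to 262, 57.4 and 137 normalized counts at 10 weeks and 253, 269 and 265 at 30 weeks, so that library 4 lay within the older range. All 15 had a read, 8 reached the minimum mean, 14 had a positive log2 fold change (median 0.94) and none had an unadjusted p under 0.05. Of the 8 at the minimum mean, 3 did not overlap and were higher, Lck among them, against 5.39% of all genes. Cd3e, a chain of the T cell receptor complex, had 8.69, 5.85 and 4.85 at 10 weeks against 9.85, 18.8 and 7.41 at 30 weeks, Cd8a, the coreceptor of cytotoxic T cells, had 24.3, 2.34 and 2.42 then 16.7, 18.8 and 14.8, and the kinase Lck had 20.9, 11.7 and 12.1 then 30.3, 31.01 and 22.2 (log2 fold change 0.89, SE 0.40, adjusted p = 1.00). The order of the ages in Cd8a was set by libraries 5 and 6.

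Interferons induce a broad antiviral programme, and the promoters of its genes often carry the interferon-stimulated response element. The promoters of Isg15 and Ifit3 are shown as examples of list members that share its core letters, GAAA and GAAA with any 2 bases between them, on either strand and in capitals, within the 250 bases before the start (RefSeq, GRCm38.p6, written 5′ to 3′ on the gene's strand): Isg15 at chr4:156200819-156201068 on the minus strand and Ifit3 at chr19:34583279-34583528 on the plus strand. In Isg15 3 overlapping matches form 1 run.
Isg15: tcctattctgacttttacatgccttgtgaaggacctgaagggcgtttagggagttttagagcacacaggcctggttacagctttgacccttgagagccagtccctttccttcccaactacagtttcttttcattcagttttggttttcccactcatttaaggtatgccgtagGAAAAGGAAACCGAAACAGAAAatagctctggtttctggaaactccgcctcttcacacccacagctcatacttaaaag
Ifit3: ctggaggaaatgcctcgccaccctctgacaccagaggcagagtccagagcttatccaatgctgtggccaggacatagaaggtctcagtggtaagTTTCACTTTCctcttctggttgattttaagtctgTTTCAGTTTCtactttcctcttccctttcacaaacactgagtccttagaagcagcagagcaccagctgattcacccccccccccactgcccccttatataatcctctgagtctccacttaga
Of the 20 interferon-response genes listed, 15 had a promoter entry and 9 of these held the letters, against 2.98% of all 32851 promoters. Among 9 MHC class I genes, 7 had an entry and 1 (B2m) held them.

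On the log2 scale the interferon-response genes had a median age difference of 0.94 and 19 of 20 were positive. Only 2 of 20 had an unadjusted p under 0.05 (4.49% of all genes), and 1 of 20 did not overlap (5.39% of all genes). The exception was Zbp1, a sensor of viral nucleic acid, with 81.7, 8.19 and 41.2 at 10 weeks against 91.7, 210.4 and 171 at 30 weeks (log2 fold change 2.24, SE 0.78, adjusted p = 0.936). Isg15, a ubiquitin-like modifier, had 163, 62.0 and 116 then 155, 351 and 231 (log2 fold change 1.13, SE 0.42, adjusted p = 1.00), and Ifit1, which binds viral RNA, had 992, 173 and 531 then 654, 826 and 852 (log2 fold change 0.78, SE 0.57, adjusted p = 1.00). Summed over the list, the values were 13053, 3517 and 8288 at 10 weeks and 9743, 14628 and 12959 at 30 weeks. Library 4 was as high as the older libraries and library 5 was the lowest of all 6, so the ages overlapped. The medians were 0.02 in WT-TRAMP and −0.46 in KO-TRAMP. The T and NK cell sums had the same order among the 10-week libraries, and their part in the result was not tested.

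MHC class I genes, which present peptides to cytotoxic T cells, were also lowest on average in library 5, and library 4 lay within the older range. All 9 had a positive log2 fold change (median 0.54), 2 of 9 did not overlap and were higher, against 5.39% of all genes, and 1 had an unadjusted p under 0.05, near the 4.49% of all genes. B2m, the common light chain, had 15597, 15807 and 12639 at 10 weeks against 21203, 16529 and 18815 at 30 weeks (log2 fold change 0.36, SE 0.16, adjusted p = 1.00), and Nlrc5, the coactivator of class I genes, had 660.5, 270.4 and 383 then 672, 799.5 and 799 (log2 fold change 0.88, SE 0.31, adjusted p = 0.944). The peptide transporter subunit Tap1 overlapped (959, 358 and 565 then 734, 951 and 853). Of 11 acute phase and cytokine genes, all with a read and 6 at the minimum mean, Socs3, the feedback inhibitor of STAT3 signalling, had 32.2, 11.7 and 32.7 then 44.0, 123 and 89.9 (log2 fold change 1.72, SE 0.53, adjusted p = 0.807), and Lrg1, an acute phase glycoprotein, had 19.99, 45.7 and 25.4 then 46.2, 210.4 and 73.2 (log2 fold change 1.61, SE 0.59, adjusted p = 0.989), both without overlap. Socs3 and Lrg1 were the 2 of 6 members at the minimum mean without overlap and higher, against 5.39% of all genes. Lcn2, an iron-binding protein of inflamed epithelium, had 1313 in library 5 against 46.1 and 38.8 in the other 10-week libraries, and 427, 118 and 273 at 30 weeks, and overlapped. Il6 had 2 reads in library 15 and none elsewhere, and the list median was 0.55 (9 of 11 positive).

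**Figure D2:**
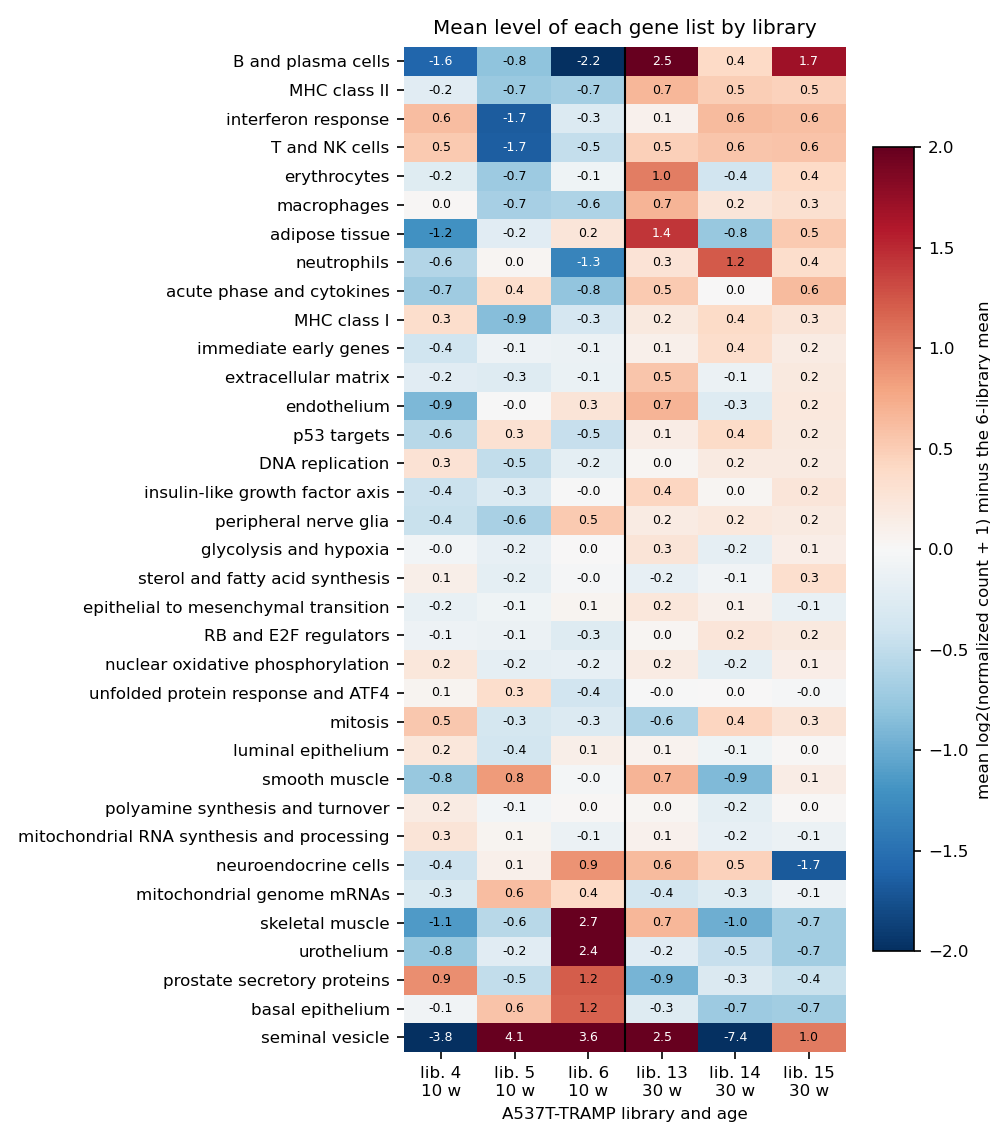
Mean log2(normalized count + 1) of the members of each gene list at the minimum mean, in each A537T-TRAMP library, less the list's mean over the 6 libraries. Colour is capped at 2 and −2, the printed numbers are not. The B and plasma cell row holds 5 of 12 genes and the neutrophil row 1 of 6 (Csf3r). MHC class II, B and plasma cell and macrophage lists are higher in all 3 older libraries (right of the line). So are the immediate early, RB and E2F, and neutrophil rows, and the basal epithelium list is lower in all 3. The extracellular matrix list (library 14 −0.12, library 6 −0.14) and the insulin-like growth factor list (library 14 0.04, library 6 −0.01) are higher only narrowly. The interferon, T and NK cell and MHC class I lists are low mainly in library 5, and the seminal vesicle list follows single libraries.

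Stromal genes were less uniform. Of 27 extracellular matrix genes, 24 had a positive log2 fold change (median 0.36), 7 did not overlap and were higher, against 5.39% of all genes, and 7 had an unadjusted p under 0.05, against 4.49%, 6 of them higher. Beside Thbs1 and Tnc, these included Lox, which cross-links collagen, with 167, 85.4 and 118 at 10 weeks against 291, 261 and 208 at 30 weeks (log2 fold change 1.07, SE 0.27, adjusted p = 0.662), and Fbln1, a fibulin of elastic fibres, with 143, 102 and 154 then 309, 202 and 388 (log2 fold change 1.14, SE 0.29, adjusted p = 0.629). The fibrillar collagens did not separate the ages: Col1a1 had 845, 1076 and 1150 then 959.6, 1138 and 1036 (log2 fold change 0.04, SE 0.16), and Col3a1 had 1627, 2633 and 2999 then 3446, 2609 and 2990.3 (log2 fold change 0.35, SE 0.24). Col6a3 was far higher in library 4 (25258) than in any other library (1129.6 to 5116). The list median was 0.36 in WT-TRAMP and 1.74 in KO-TRAMP.

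In the insulin-like growth factor axis, 1 ligand and 2 of the binding proteins had no overlap. Beside Igf1, the binding proteins Igfbp4 (66.9, 291 and 126 at 10 weeks, 380.5, 436 and 422 at 30 weeks; log2 fold change 1.60, SE 0.48, adjusted p = 0.770) and Igfbp6 (71.3, 57.4 and 90.9 then 243, 112 and 154, log2 fold change 1.15, SE 0.33, adjusted p = 0.744) did not overlap and were higher. The receptor Igf1r did overlap (1749, 4939 and 2615 then 2029, 2227 and 1875; log2 fold change −0.47, SE 0.35), as did Igf2r and the second ligand Igf2. The 10 genes had a median of 0.20, with 7 positive and 3 without overlap and higher, against 5.39% of all genes. Endothelial markers had a median of 0.35 (11 of 12 positive, 1 of 12 without overlap and higher, near the 5.39% of all genes) and sums of 388 to 851 at 10 weeks and 607 to 1143 at 30 weeks: Emcn, a sialomucin of capillaries, had 17.4, 25.8 and 29.1 then 62.9, 31.01 and 50.9, while Pecam1 overlapped (58.2, 101 and 108 then 209.9, 102 and 113) as did Cdh5 (38.2, 58.5 and 66.7 then 88.7, 43.2 and 60.2). Smooth muscle transcripts had a median of −0.02 and tracked libraries rather than age: Acta2, smooth muscle actin, had 2731, 5842 and 2763 then 5822, 1854 and 4217, and Myh11, its myosin, had 4527, 14631 and 8409 then 13801, 4219 and 9578, both high in libraries 5 and 13 and low in libraries 4 and 14. The part of this difference in muscle content in the matrix values was not tested.

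In the RB pathway, the members without overlap were inhibitors of cyclin-dependent kinases and 1 cyclin. Cdkn2a, which encodes p16INK4a and p19ARF, had normalized counts of 40.0, 4.68 and 37.6 at 10 weeks against 214, 359 and 217 at 30 weeks (log2 fold change 3.63, SE 0.75, adjusted p = 0.481). All older libraries lay at or above 214 and all younger ones at or below 40.0, with library 5 the lowest. Its rise passed the test in KO-TRAMP (log2 fold change 2.82, SE 0.61, adjusted p = 0.0427). Cdkn2c (p18INK4c) had 267, 241 and 235 then 432, 374 and 461 (log2 fold change 0.77, SE 0.15, adjusted p = 0.439), and Cdkn1a (p21) had 26.9, 60.9 and 43.6 then 69.0, 101 and 76.9 (log2 fold change 0.95, SE 0.35, adjusted p = 0.991), again without overlap. Cyclin D2 (Ccnd2) was lower without overlap (272, 486 and 418 then 231, 186 and 244, log2 fold change −0.80, SE 0.24, adjusted p = 0.804). The other members overlapped, including E2f1 (194, 173 and 178 then 183, 255.8 and 211; log2 fold change 0.24, SE 0.18) and the histone methyltransferase Ezh2 (682, 515 and 589 then 534, 674 and 644). The 21 genes had a median of 0.12, with 3 higher and 1 lower without overlap, against 5.39% and 4.31% of all genes.

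DNA replication genes had small positive differences, and mitotic genes showed none in common. Of 23 replication genes, 22 had a positive log2 fold change (range −0.14 to 0.52, median 0.25), yet all 23 overlapped and none had an unadjusted p under 0.05. Mcm2 of the replicative helicase had 1675, 993 and 1328 at 10 weeks against 1602, 1616 and 1749.9 at 30 weeks, Mcm6 had 2779, 1450.3 and 2018 then 2854, 3032 and 2746, and the clamp Pcna had 1586, 809 and 988 then 1420.4, 1407 and 1544, and for each of them library 5 was the lowest and library 4 lay among the older libraries or above them. Of 25 mitotic genes, 14 were positive (median 0.02), all overlapped and none had an unadjusted p under 0.05. Mki67, the proliferation antigen, had 5698, 3880.4 and 3902 then 2848, 5928 and 4875 (log2 fold change −0.02, SE 0.29), topoisomerase Top2a had 2994, 1326 and 1554 then 1369.6, 2353 and 1991, and the spindle protein Prc1 had 800.4, 495 and 569.6 then 465, 883 and 873. Library 13 had the lowest Mki67 and library 14 the highest of all 6, so that the 30-week values spanned all of the 10-week values. The mitotic list had a median of −0.23 in WT-TRAMP and 0.90 in KO-TRAMP.

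Among targets of p53, Eda2r, a death receptor family member, had 28.7, 77.3 and 32.7 at 10 weeks against 99.3, 124 and 116 at 30 weeks (log2 fold change 1.41, SE 0.39, adjusted p = 0.731), and Pmaip1 (Noxa), a pro-apoptotic protein, had 4.35, 9.36 and 3.64 then 15.9, 25.5 and 16.7 (log2 fold change 1.65, SE 0.54, adjusted p = 0.893). With Phlda3 (29.5, 66.7 and 42.4 then 75.8, 73.1 and 74.1) and Cdkn1a, 4 of 14 did not overlap and were higher, against 5.39% of all genes, and 3 had an unadjusted p under 0.05, against 4.49%. Mdm2, the ubiquitin ligase of p53, overlapped (659, 832 and 602 then 660.2, 792 and 594; log2 fold change −0.03, SE 0.18). The list median was 0.33, with 9 of 14 positive. Immediate early genes had a median of 0.49 (10 of 11 positive, 4 without overlap and higher against 5.39% of all genes, and 1 with an unadjusted p under 0.05 against 4.49%, so that this last count was near the share over all genes): Fos had 33.9, 44.5 and 44.8 then 60.6, 84.2 and 129 (log2 fold change 1.08, SE 0.33, adjusted p = 0.786), and Egr1 overlapped (90.4, 166 and 239.9 then 212, 369 and 250.1).

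Luminal identity genes had small differences between the ages, whereas the main secretory products had large ones that followed single libraries. The luminal epithelium list had a median of −0.02 (7 of 15 positive). Krt8 had 4156, 2615 and 3545 then 3252, 4437 and 3603 (log2 fold change 0.14, SE 0.21). Of 8 secreted proteins, 5 were negative (median −1.11). Spermine-binding protein (Sbp) had 318087, 5742 and 152207 at 10 weeks against 16258, 8066 and 15669 at 30 weeks (log2 fold change −2.36, SE 1.36, adjusted p = 1.00), so that library 5, with the most seminal vesicle RNA, was below all older libraries and the ages overlapped. Pbsn, whose promoter drives the transgene, had a log2 fold change of −1.51 (SE 0.54; unadjusted p under 0.05, not passing after adjustment), with library 14 inside the 10-week range. Msmb (5028, 5136 and 4160.2 then 4857, 5054 and 5355) and Azgp1 (2187, 979.7 and 2181 then 2297, 1816 and 2202) had positive differences. For the secretory list, KO-TRAMP had a median of −3.20 and WT-TRAMP of −0.50.

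Basal epithelial markers were lower at 30 weeks, without passing the test. Krt5, the basal keratin also named by the rule for lower genes, had 123, 259 and 484 at 10 weeks against 91.7, 23.3 and 45.4 at 30 weeks (log2 fold change −2.41, SE 0.62, adjusted p = 0.663), and Krt15 had 292, 253 and 1230 then 137, 194 and 99.1 (log2 fold change −1.70, SE 0.60, adjusted p = 0.946), both without overlap. Trp63, the transcription factor that defines basal cells, overlapped through library 4 (83.4, 325 and 252 then 114, 52.0 and 87.1; log2 fold change −1.23, SE 0.54), and Krt17 had a positive difference (27.8, 21.1 and 30.3 then 28.8, 68.7 and 68.6). Of the 7 listed, all had a read and 6 were negative (median −1.23). Of the 6 at the minimum mean, 2 were without overlap and lower, against 4.31% of all genes, and 3 had an unadjusted p under 0.05, against 4.49%. The list summed to 643, 1073 and 2253 at 10 weeks and 482, 409.7 and 357 at 30 weeks. Library 6, the highest, also had the highest urothelial and skeletal muscle sums (2118, 1750 and 3209 for urothelium and 406, 1539 and 1727 for skeletal muscle in libraries 4, 5 and 6), and their part in the basal result was not tested. Without library 6 the log2 fold change of Krt5 was −1.93.

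Many neuroendocrine transcripts, which mark an aggressive tumour form in TRAMP mice, were low at both ages, but not all. Summed over the list, normalized counts were 475, 1451 and 814 at 10 weeks and 869, 692 and 682 at 30 weeks, so the ages overlapped. The secretory granule protein Chga had normalized counts of 6.08, 3.51 and 12.1 at 10 weeks against 4.55, 8.86 and 2.78 at 30 weeks, and the vesicle protein Syp had 4.35, 16.4 and 25.4 then 24.3, 31.01 and 13.9. The factor Nkx2-2 had no read in any library. Of the 19 listed, 18 had a read, 8 reached the minimum mean and 6 of the 18 were positive, with a median of −0.17, against 2.37 in WT-TRAMP and 3.80 in KO-TRAMP. Over the 8 members at the minimum mean, library 15 had the lowest list mean. Epithelial to mesenchymal transition genes had a median of 0.14 (9 of 14 positive, none of the 11 at the minimum mean without overlap): Cdh1, E-cadherin, had 4950.1, 4041 and 5228 then 4722, 6929 and 5339.5, and vimentin (Vim) had 229, 302 and 399.9 then 552, 369.9 and 409.

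Mitochondrially encoded mRNAs, which ELAC2 helps to release from their precursor by cutting between tRNA and mRNA, were lower in common but by small amounts. All 11 rows of the list, in which mt-Atp8 with mt-Atp6 and mt-Nd4l with mt-Nd4 were counted jointly, had a negative log2 fold change (median −0.41; −0.33 in WT-TRAMP and −0.37 in KO-TRAMP), 1 of 11 did not overlap and was lower, and 1 had an unadjusted p under 0.05, both near the shares over all genes (4.31% and 4.49%). That was mt-Nd3, with 2282, 2949 and 2599 at 10 weeks against 1989, 1308 and 2070.4 at 30 weeks (log2 fold change −0.57, SE 0.21, adjusted p = 0.991). The complex I subunit mt-Nd1 had 5335, 10037 and 8599 then 5833, 5672 and 6171, and mt-Co1 had 60024, 80497 and 73141 then 62341, 48125 and 56992. In these, library 4 was the low 10-week library and libraries 5 and 6 set the difference. Much of mt-Nd3 and mt-Co1 (98.1% and 63.9% of their 31-base words) also occurs in other annotated genes, and the authors masked nuclear copies of mitochondrial sequence before alignment. Genes of mitochondrial RNA synthesis and processing had a median of −0.12 (3 of 9 positive): the RNA polymerase Polrmt had 229, 263 and 219 then 215, 202 and 126, without overlap and lower (log2 fold change −0.42, SE 0.24, adjusted p = 1.00), and Trmt10c of mitochondrial RNase P had 211, 207 and 177 then 203, 151 and 179. Polrmt was the 1 member of 9 without overlap, near the 4.31% of all genes, and no member had an unadjusted p under 0.05. Nuclear genes of oxidative phosphorylation had small differences (median 0.08, 17 of 24 positive, range −0.20 to 0.30): Ndufs1 of complex I had 680.5, 531 and 578 then 687, 525 and 634, Cox4i1 of complex IV had 2049, 1701 and 1733 then 2084, 1640 and 1946, and Cyc1, the cytochrome c1 of complex III, was the 1 member without overlap, and higher, near the 5.39% of all genes (337, 352 and 302 then 356, 367 and 518).

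Stress and metabolic genes had list medians near that of all genes. The unfolded protein response and ATF4 list had a median of 0.06 (10 of 18 positive): the chaperone Hspa5 (BiP) had 12941, 9898 and 7443 at 10 weeks against 11245, 9361 and 11725 at 30 weeks, the pro-apoptotic factor Ddit3 (CHOP) had 62.6, 87.8 and 50.9 then 56.1, 89.7 and 63.0, and Pdia4, a disulphide isomerase, was the 1 member without overlap, and higher, near the 5.39% of all genes (3416, 3311 and 2837 then 3720, 3702 and 3982). In KO-TRAMP the list median was −0.36, with Hspa5 lower at 30 weeks (log2 fold change −1.13, SE 0.23, adjusted p = 0.0355). Glycolysis and hypoxia genes had a median of 0.17 (10 of 14 positive; Eno1 1619.9, 962 and 1008 then 1506, 1628 and 1765; Slc2a1 186, 481 and 221 then 271, 172 and 241; Vegfa 488, 574 and 396 then 442, 419.7 and 449), and sterol and fatty acid genes of 0.15 (13 of 18 positive; Hmgcs1 489, 387 and 416 then 408, 478 and 582; Fasn 3471, 3795 and 3974 then 2644, 3687 and 2987). Polyamine genes, of which the prostate is a heavy user, had a median of −0.05 (3 of 10 positive): the rate-limiting Odc1 had 2189, 1894 and 2176 then 2353, 1439.5 and 2428, the catabolic Sat1 766, 1103 and 751 then 834, 550.4 and 773, and the oxidase Paox 212, 146 and 213 then 149, 136 and 169.5. No member of these 3 lists at the minimum mean (13 of 14 for glycolysis and hypoxia, all for the others) was without overlap. None of the 4 lists had such a member with an unadjusted p under 0.05.

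Markers of tissue outside the prostate followed single libraries. Seminal vesicle genes had a median of −2.35 in A537T-TRAMP and 5.69 in WT-TRAMP, with Svs2, a main protein of the copulatory plug, at 3112, 739459 and 14961 at 10 weeks against 348839, 5.54 and 173466 at 30 weeks, Svs5 at 1272, 273157 and 51021 then 141899.7, 7.75 and 57014, and Svs6 at 11.3, 2027 and 2868 then 533, 0 and 155. Skeletal muscle genes had a median of −0.55 (Myh4 0, 0 and 559.9 then 14.4, 0 and 1.85), and urothelial genes of −0.73 (Upk1b 1511, 1267 and 2001 then 1083, 1836 and 1292; Upk3a 0, 0 and 177 then 1.52, 0 and 0), both with library 6 the highest. Adipose genes, all 9 with a read and 3 at the minimum mean, had a median of 0.59 in A537T-TRAMP, 4.94 in WT-TRAMP and 1.49 in KO-TRAMP (Fabp4 50.4, 5.85 and 33.9 then 62.9, 19.9 and 41.7 in A537T-TRAMP). Erythrocyte genes, in which Hba-a1 shares 75.4% of its 31-base words with Hba-a2 and Hbb-bs 54.4% with Hbb-bt, had a median of 0.92 (Hbb-bs 49.5, 42.1 and 63.0 then 155, 52.0 and 113), and peripheral nerve glia of 0.19.

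**Figure D3:**
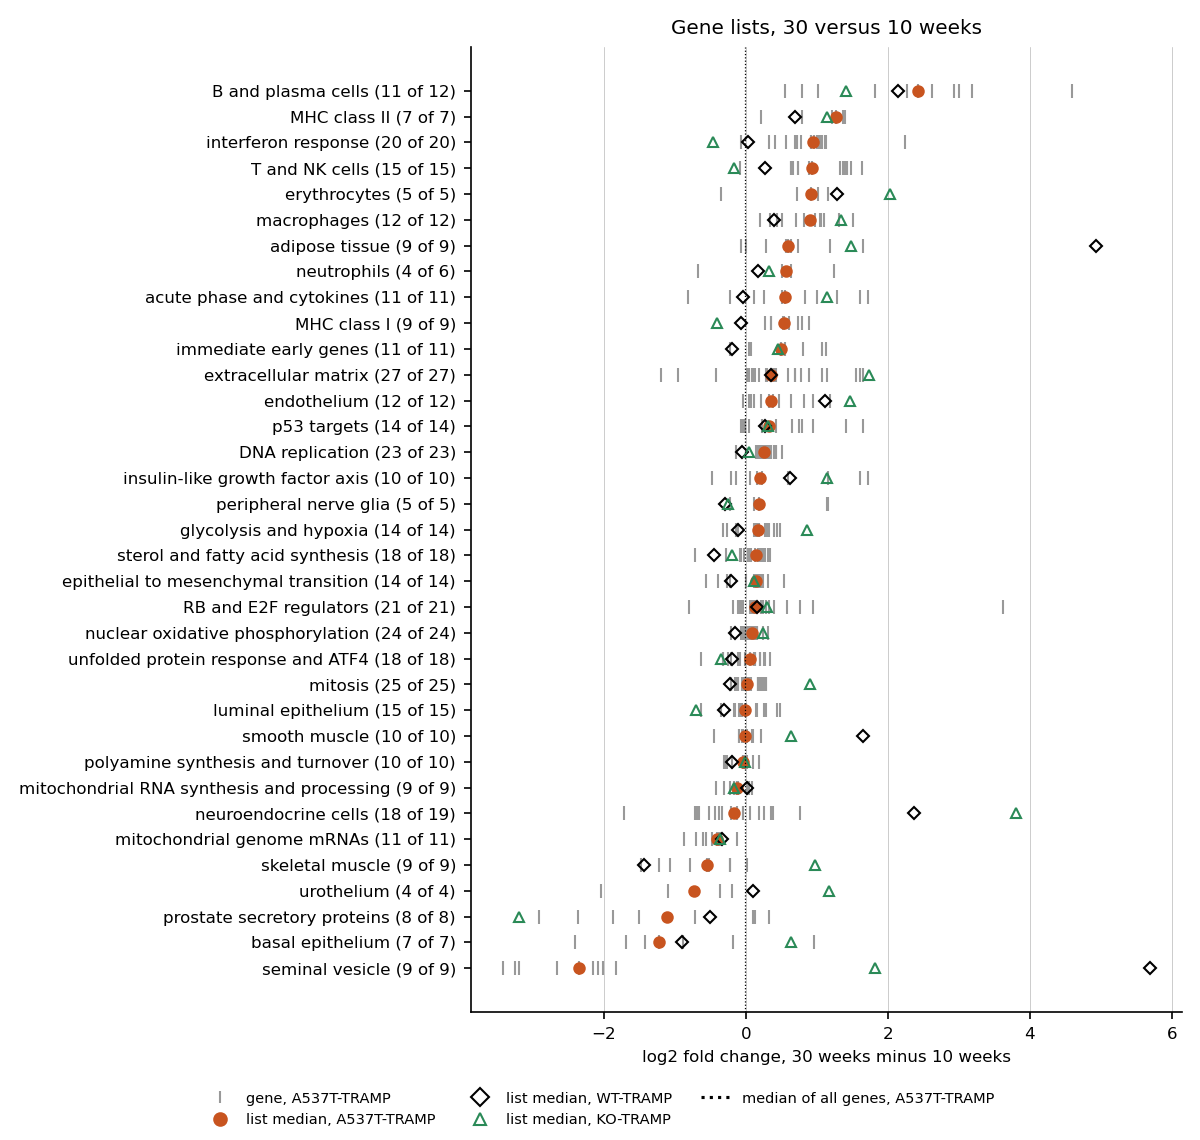
Log2 fold change, 30 weeks minus 10 weeks, of each list member with a read in A537T-TRAMP (grey ticks) with the list medians in A537T-TRAMP (orange), WT-TRAMP (black) and KO-TRAMP (green); brackets give members with a read of members listed. B and plasma cell genes are at the top and seminal vesicle genes at the bottom for A537T-TRAMP, and the lines lie far apart for seminal vesicle, adipose and neuroendocrine genes.

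Whether the age change was particular to the A537T line was asked by testing the difference between lines. Against WT-TRAMP, 0 of 15917 genes passed by limma (0.0%; 983 at an unadjusted p under 0.05; 0 by edgeR and 53 by DESeq2), with a smallest adjusted p of 0.598. Against KO-TRAMP, 0 of 16391 passed (0.0%; 1116 at an unadjusted p under 0.05; 0 by edgeR and 134 by DESeq2), with a smallest adjusted p of 0.197. Library weights raised these counts to 1547 and 3754, leaving out library 11 or 4 gave 10 or 5 calls against WT-TRAMP, and leaving out library 16 gave 1257 against KO-TRAMP. In the same fits, 25 of 15917 genes (0.157%) changed with age in WT-TRAMP and 337 of 16391 (2.06%) in KO-TRAMP. An age change that passes in 1 line and not in another is not shown to differ by these counts.

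The 3 genes per direction with the smallest p for a difference from WT-TRAMP, among those with a mean of at least 100 over the 12 libraries and under the same rule on names, are given as values, none passing. Sfrp1 had the larger age difference in A537T-TRAMP (log2 difference 0.90, SE 0.22, unadjusted p = 0.00183, adjusted p = 0.729), with 86.8, 91.7 and 98.8 in WT-TRAMP at 10 weeks against 189, 214 and 203 at 30 weeks. Lox had 125, 152 and 143 in WT-TRAMP at 10 weeks against 106, 138 and 116 at 30 weeks (log2 difference 1.30, SE 0.33, unadjusted p = 0.00207, adjusted p = 0.729), and the endoplasmic reticulum protein Tmem41b had 588, 488 and 500.2 then 392, 397 and 426 (log2 difference 0.68, SE 0.16, unadjusted p = 0.00147, adjusted p = 0.729), against 470.2, 407 and 423 then 485, 584 and 540.1 in A537T-TRAMP. In the opposite direction, Rusc2 had 85.1, 75.8 and 75.1 then 174, 253 and 322 in WT-TRAMP but 122, 299.7 and 228 then 139, 169 and 105 in A537T-TRAMP (log2 difference −2.19, SE 0.46, unadjusted p = 0.000505, adjusted p = 0.729). Myocd, the coactivator of smooth muscle genes, had 18.7, 19.6 and 27.9 then 211, 93.9 and 97.3 in WT-TRAMP but 79.1, 279.8 and 98.2 then 114, 121 and 49.1 in A537T-TRAMP (log2 difference −3.02, SE 0.71, unadjusted p = 0.00131, adjusted p = 0.729), beside smooth muscle list medians of 1.65 and −0.02, whose part was not tested. The lipid-binding protein Osbpl6 had 630.3, 542 and 523 then 709, 806 and 739, against 758, 763 and 869 then 584, 726 and 566 (log2 difference −0.76, SE 0.18, unadjusted p = 0.00113, adjusted p = 0.729). Igf1 had 152, 78.2 and 118 then 155, 127 and 107 in WT-TRAMP (log2 difference 1.53, SE 0.39, unadjusted p = 0.00213, adjusted p = 0.729).

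Against KO-TRAMP, the 3 genes with the smallest p and a more negative age difference in A537T-TRAMP encode matrix and basement membrane proteins. Fbn1, fibrillin 1, had 222, 321 and 323 then 1292, 1118 and 1116 normalized counts in KO-TRAMP at 10 and 30 weeks but 421, 421 and 416 then 585, 394 and 410.4 in A537T-TRAMP (log2 difference −1.92, SE 0.26, unadjusted p = 1.43e-05, adjusted p = 0.197). Col3a1 rose in KO-TRAMP from 1053, 1684 and 1707 to 12771, 6810.4 and 9321 (log2 fold change 2.69, SE 0.29, adjusted p = 0.00176), with a log2 difference −2.33, SE 0.41, unadjusted p = 0.000127, adjusted p = 0.349 for A537T-TRAMP less KO-TRAMP. Col4a2, a basement membrane collagen, had 329.6, 431 and 359 then 976, 999 and 1003 in KO-TRAMP, against 425, 571 and 514 then 617, 449.6 and 428 in A537T-TRAMP (log2 difference −1.44, SE 0.24, unadjusted p = 9.49e-05, adjusted p = 0.349). The age difference was more positive in A537T-TRAMP for Ide, the insulin-degrading enzyme (1836, 1515 and 1476 then 2247, 2148 and 2358; KO-TRAMP 2968, 2593 and 2886 then 1591, 1836 and 1871, log2 difference 1.17, SE 0.17, unadjusted p = 2.41e-05, adjusted p = 0.197), Krt23, an epithelial keratin (88.6, 107 and 144 then 145, 188 and 148; KO-TRAMP 203, 253 and 236 then 109.7, 66.8 and 97.6, log2 difference 1.87, SE 0.33, unadjusted p = 0.000153, adjusted p = 0.349), and Derl3, of endoplasmic-reticulum-associated degradation (499.7, 527 and 429 then 323, 437 and 457; KO-TRAMP 693, 684 and 684 then 254, 147 and 169, log2 difference 1.62, SE 0.29, unadjusted p = 0.000139, adjusted p = 0.349). A537T-TRAMP and KO-TRAMP values come from separately quantified tables at each age, so these differences may carry a difference between tables. Thbs1 (log2 difference −1.54, SE 0.47, unadjusted p = 0.00786, adjusted p = 0.680) and Tnc (log2 difference −1.60, SE 0.45, unadjusted p = 0.00422, adjusted p = 0.680), higher at 30 weeks in A537T-TRAMP, reached 1955, 5165 and 3986 and 985, 419 and 602 normalized counts in the 30-week KO-TRAMP libraries.

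**Figure D4:**
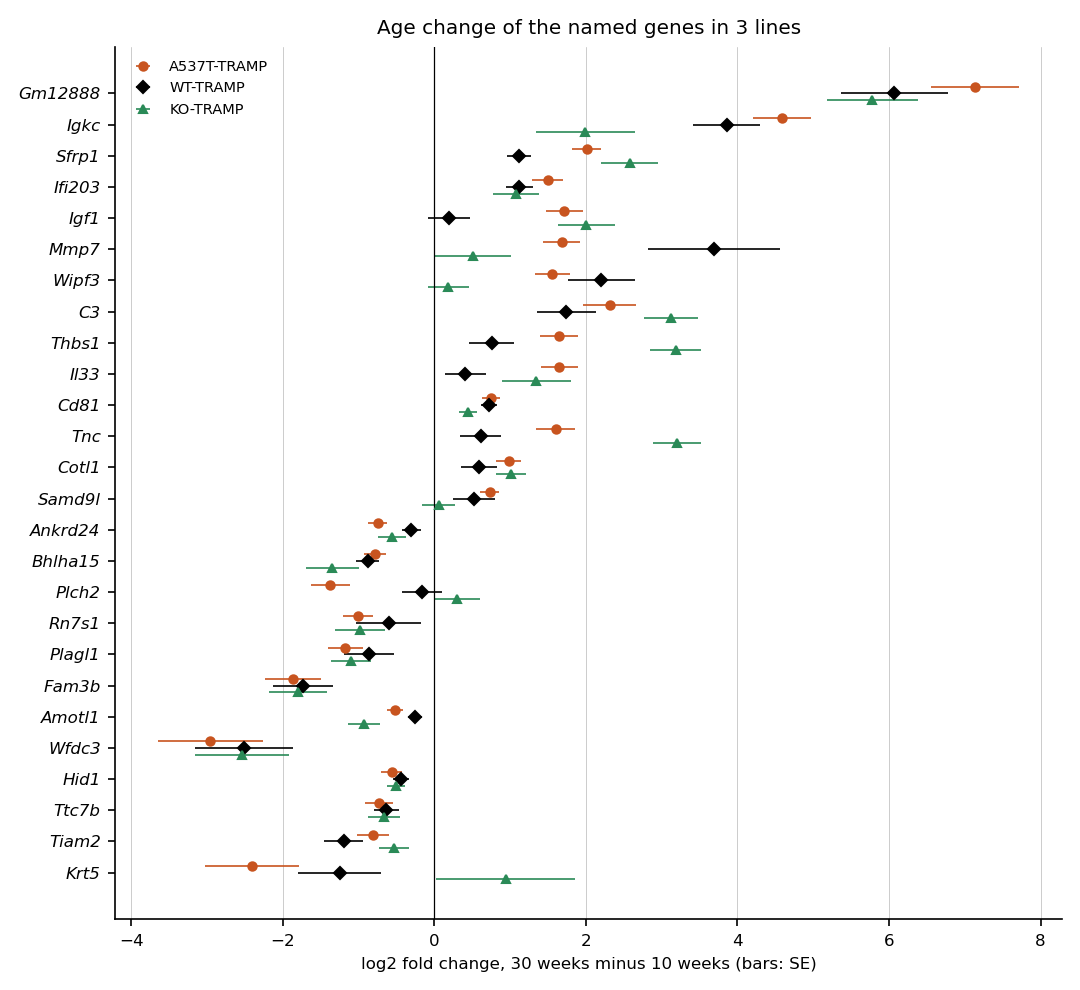
Log2 fold change with age (points, bars give the SE) of the 2 genes that passed in A537T-TRAMP and the 24 genes named by rule, in A537T-TRAMP (6-library fit) and in WT-TRAMP and KO-TRAMP (12-library fits). Gm12888 lies far to the right in all 3 lines, Thbs1 and Tnc lie further right in KO-TRAMP than in the other lines, and Krt5 and Plch2 have opposite signs in A537T-TRAMP and KO-TRAMP.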

How the data were processed

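Total RNA of ventral and lateral prostate was sequenced; 6 of 18 libraries are A537T-TRAMP. Per the submitters' processing notes, the authors trimmed reads (Trim Galore 0.4.1, cutadapt 1.18), aligned them with STAR 2.7.3a to masked GRCm38, quantified genes with Salmon and scaled them with DESeq2 1.26. The deposited signal is a normalized count per gene, scaled by the authors within 4 tables of 6 libraries. In each library 100% of values were whole multiples of a step, and value divided by step was taken as the reads. WT-TRAMP libraries occur in 2 tables, and 30.9% to 37.6% of their genes had identical reads in both. Another 4 tables, of the authors' own comparisons, were not used.

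Reads of the 6 libraries were rescaled together by median-of-ratios size factors. Age was tested with limma 3.58.1 (R 4.3.3, trend) on log2(normalized count + 1) for genes with a mean of at least 10, two-sided, with Benjamini-Hochberg adjustment at 0.05. This scale understates changes of low genes. WT-TRAMP and KO-TRAMP values and differences between lines came from fits of 12 libraries. All p-values given with a log2 fold change or difference are from these fits. Alternatives included edgeR 4.0.16 and DESeq2 1.42.0 on the reads, TMM, and each library left out. The age fit and the difference from WT-TRAMP were tested on simulated data. The age fit recovered 10.4% of 2-fold, 69.8% of 4-fold and 90.8% of 8-fold changes, with 8 false calls among 15321 unchanged genes. For the difference these values were 7.58%, 50% and 72.7%, with 4 false calls among 15513. A gene that did not pass is therefore not shown to be unchanged. Column headers carry library numbers only, and groups were taken from the tables' names and shared columns. Coordinates are GRCm38, and 55193 of 55469 gene IDs had a position. The gene lists and named genes were chosen with earlier results of these data known. The rule named the 12 genes per direction described in the report, the first 2 members and the smallest p of each list, and 3 genes per direction for each difference between lines (mean of at least 100, with clone, pseudogene and immunoglobulin or T cell receptor segment names left out of both per-direction choices); genes beyond it were chosen after their values were seen, and some list members are not reported here.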

Additional observations from a re-analysis of the deposited data

How the results depend on the processing

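Gm12888 and Igkc kept their direction under every alternative tried. Both stayed past the threshold with TMM, a pseudocount of 5, no minimum mean, library weights, DESeq2 and without table-dependent genes, and with deposited scaling (3 calls). Calls numbered 0 with edgeR (smallest adjusted p 0.0599), with a minimum mean of 50 and with the seminal vesicle covariate, 4 with no minimum mean, 99 with DESeq2, 125 with library weights, and 9 or 2 with the spread shared with WT-TRAMP or KO-TRAMP, both chosen after seeing the data. The cause was not tested. Leaving out single libraries gave 0 to 1 calls, where fewer libraries enter. For the difference from WT-TRAMP, calls numbered 53 with DESeq2, 1547 with library weights and 0 to 10 with single libraries left out; for that from KO-TRAMP, 134, 3754, 0 to 1257, and 1 with no minimum mean. The other 41 alternatives of these counts stayed within 1.5 times. Among single genes and list medians, 2316 alternative values kept direction and call, 86 passed where the reported fit did not, 17 (all of Gm12888 or Igkc) no longer passed, 71 changed sign and 25 list medians moved. No paired analysis was possible because the column headers carry no replicate number. With 3 libraries per age, differences smaller than the spread between libraries were not detectable, and low genes rest on few reads. Beside the genes flagged above, large shares of 31-base words occur in other genes for Odc1 (31.3%), Paox (30.3%), Eno1 (28.5%), Sbp (26.6%, with Sbpl), Pcna (23.3%) and Csf3r (23.05%). Their counts are uncertain to that extent.

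Some named genes with small or library-bound differences, none past the threshold in the reported fit, changed sign. Their log2 fold changes were then as follows: with DESeq2, Top2a −0.041, Lcn2 −0.77, Mki67 0.018, Acta1 −0.12. With TMM, Mki67 0.0027. With library weights, Col1a1 −0.087, Odc1 0.12, Vegfa 0.067, Slc2a1 0.0054, Mki67 0.17, Syp −0.27, Svs2 2.13. With the deposited scaling, Odc1 0.15, Mdm2 0.16, Elac2 0.071, Vegfa 0.057, Mki67 0.17, Trmt10c 0.027, Upk1b 0.0022. With edgeR, Odc1 0.0093, Top2a −0.019, Lcn2 −0.74, Mki67 0.037, Acta1 −0.10. With the seminal vesicle covariate, Odc1 0.049, Top2a −0.14, Ddit3 −0.0014, Ezh2 −0.0024, Ckm 0.76, Svs2 0.55. The cause was not tested.

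With single libraries left out, the range crossed 0 for Acta1 (−0.38 to 0.56), Acta2 (−0.34 to 0.50), Cdh5 (−0.058 to 0.46), Ckm (−1.93 to 1.24), Col1a1 (−0.094 to 0.13), Cox4i1 (−0.030 to 0.15), Ddit3 (−0.13 to 0.27), Ezh2 (−0.040 to 0.16), Fabp4 (−0.13 to 1.31), Hspa5 (−0.077 to 0.32), Lcn2 (−0.043 to 2.48), Mdm2 (−0.14 to 0.11), Mki67 (−0.24 to 0.28), Myh11 (−0.43 to 0.49), Ndufs1 (−0.043 to 0.16), Odc1 (−0.18 to 0.21), Slc2a1 (−0.54 to 0.15), Svs2 (−4.93 to 2.93), Svs5 (−5.20 to 1.79), Top2a (−0.21 to 0.37).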

Other observations

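When the spread was shared with the WT-TRAMP libraries over 12 libraries normalized together, an alternative chosen after seeing the data, 9 of 15917 genes (0.0565%) passed by limma. Beside Gm12888, Igkc, Sfrp1, Ighm, Ifi203 and Cd81, these were 3 genes of leukocytes and matrix, named after their values were seen. Itgb2, the beta chain of leukocyte integrins, had normalized counts of 40.9, 25.9 and 37.8 at 10 weeks against 101, 106 and 99.7 at 30 weeks in A537T-TRAMP (log2 fold change 1.55, SE 0.22, adjusted p = 0.0384; adjusted p = 0.374 over the 6 libraries alone), with a log2 fold change of 0.36 in WT-TRAMP. Siglec1, sialoadhesin of tissue macrophages, had 30.5, 14.1 and 8.54 against 99.1, 94.5 and 105 (log2 fold change 2.60, SE 0.38, adjusted p = 0.0477; 0.391 over 6 libraries), with 0.62 in WT-TRAMP. Tgfbi, a matrix protein induced by TGF-beta, had 53.1, 73.0 and 76.9 against 146, 163 and 176 (log2 fold change 1.26, SE 0.19, adjusted p = 0.0477; 0.391 over 6 libraries), with 0.90 in WT-TRAMP. For all 3 genes every 30-week library lay above every 10-week library, and in Siglec1 library 4 was the highest of the younger group. The difference between the lines did not pass for any of them.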
